A study of Mus musculus with 12 samples.

Results

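A set of 8 genes of the mouse liver was followed in every liver of an RNA-seq experiment on alcohol and the aryl hydrocarbon receptor (AhR): *Ctse*, *Fam107a*, *Pydc3*, *Gm12070*, *Tm4sf20*, *Hip1r*, *Shb* and *Bcl2l1*. The genes were chosen by name because their levels had differed between *Ahr* HKO and WT livers in these same data, so the difference between the genotypes is what selected them and is given here as a description without a test. All 8 were found among the 24532 genes of the table and among the 14038 genes with enough reads to be tested. The name under which they were chosen, genes switched by genotype on both diets, held for 6 of the 8 in the main test and for fewer under some alternatives. *Tm4sf20* was read in *Ahr* HKO livers on the control diet alone, and *Gm12070* was read in most WT livers on the ethanol diet.

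The livers came from male C57BL/6 mice that were 10 to 12 weeks old when feeding began. In *Ahr* HKO mice, exon 2 of *Ahr* is flanked by loxP sites and removed by a Cre recombinase under the albumin promoter, which is active in hepatocytes, so that other liver cells keep the receptor. WT mice were *Ahr* fl/fl littermates without Cre, and the floxed alleles are therefore carried by all 4 groups. WT-con and HKO-con mice received a liquid control diet, and WT-EtOH and HKO-EtOH mice the Lieber-DeCarli liquid diet with ethanol at 5% of the volume and 36% of the calories, each for 5 weeks. Each group held 3 livers, each from its own library of polyadenylated RNA. The livers sequenced were a random pick from larger groups of mice.

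AhR is a transcription factor that is held in the cytoplasm until a ligand binds it. It then enters the nucleus, pairs with ARNT and binds DNA at sites with the core letters GCGTG, the xenobiotic response element, where it turns on genes such as *Cyp1a1* and *Cyp1a2*. In hepatocytes it is best known for the response to dioxin and other aromatic compounds. The 8 genes have unrelated roles. *Ctse* encodes cathepsin E, an aspartic protease of the endosome that is best known from stomach epithelium and immune cells. *Fam107a* encodes an actin-binding protein whose transcription rises with glucocorticoids in brain. *Pydc3* belongs to the interferon-inducible genes with a pyrin domain. *Gm12070* is annotated as a pseudogene. *Tm4sf20* encodes a membrane protein of the L6 family known from intestine and liver. *Hip1r* encodes a protein that ties clathrin-coated pits to actin. *Shb* encodes an adaptor with an SH2 domain that acts behind receptor tyrosine kinases. *Bcl2l1* encodes BCL-XL, which protects the cell from mitochondrial apoptosis.

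The sequence that matters most for reading the set is that of *Gm12070* (Entrez 654472), a processed pseudogene of *Gapdh* on chromosome 11 (GRCm38, 11:26785108-26787860, plus strand in RefSeq). Its 1002-base GENCODE transcript differed from the *Gapdh* transcript, which codes for a glycolytic enzyme, at 1 base, the substitution G361A, with positions counted from the first base of the *Gm12070* transcript and the *Gapdh* base written first. A stretch of 61 bases around that position, which lies at chr11:26786963-26787023 on the plus strand for *Gm12070*, is shown because it holds the only base at which these transcripts differed. The differing base is in capitals:
Gm12070: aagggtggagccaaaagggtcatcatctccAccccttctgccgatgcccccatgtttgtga
Gapdh: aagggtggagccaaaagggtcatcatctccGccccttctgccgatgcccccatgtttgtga
The annotation held 36 genes with a transcript that matched at least 900 bases of *Gm12070* at 98% identity or more, of which the table listed 1, *Gapdh* itself.

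RefSeq promoter windows on GRCm38.p6, of 250 bases before and 50 bases after a transcription start, were available for 5 of the 8 genes, in 9 windows. *Ctse*, *Gm12070* and *Tm4sf20* had no entry. The AhR core GCGTG was searched on both strands, so that it may also read CACGC. It lay in 4 of the 9 windows, of 3 genes, and in 32.4% of all 32851 promoter windows of the table. These were *Hip1r*, *Shb* and *Bcl2l1*, which are shown because they are also the genes of the set with many reads in every liver. The 150 bases before the start are given for 1 window of each, with every GCGTG or CACGC in capitals, for *Hip1r* at chr5:123973478-123973627 on the plus strand, *Shb* at chr4:45530829-45530978 on the minus strand and *Bcl2l1* at chr2:152831729-152831878 on the minus strand:
Hip1r: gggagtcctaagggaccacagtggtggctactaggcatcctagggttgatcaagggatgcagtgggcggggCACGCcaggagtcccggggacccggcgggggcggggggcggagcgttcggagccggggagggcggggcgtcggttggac
Shb: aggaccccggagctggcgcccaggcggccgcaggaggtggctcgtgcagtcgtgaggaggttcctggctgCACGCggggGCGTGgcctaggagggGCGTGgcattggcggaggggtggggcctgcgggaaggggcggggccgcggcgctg
Bcl2l1: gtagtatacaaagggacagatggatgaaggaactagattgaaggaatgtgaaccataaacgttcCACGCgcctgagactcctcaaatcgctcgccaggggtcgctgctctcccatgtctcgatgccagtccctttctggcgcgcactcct
The window of *Shb* held 4 copies of the core, of which 3 lay before the start. The window of *Hip1r* held 1 copy, which was also the only match of the longer form TNGCGTG among the 9 windows. That longer form was present in 5.07% of all windows. No copy was found in the windows of *Fam107a* and *Pydc3*. Binding of AhR was not measured in these libraries, and a match of letters does not show a site.

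The libraries held 46306518 to 74336255 reads on genes. Values are given as CPM, the count of a gene divided by its library size and scaled to a common depth, on library sizes scaled by trimmed mean of M values (TMM) factors, and the floor of detection was set at 3 counts in a library, or 0.0425 to 0.0676 CPM. Floors cover counting error only. Over all tested genes, 19.9% were called between *Ahr* HKO and WT on the control diet, with an adjusted *P* value of edgeR's quasi-likelihood test under 0.05 and a fold change (FC) above 1.5. On the ethanol diet 1.06% were called, 96 genes higher and 53 lower, whereas DESeq2 called 418 higher and 627 lower. *Cyp1a2*, a direct AhR target, was lower in *Ahr* HKO livers, at 154 ± 91.2 CPM against 490 ± 114 on the control diet and 657 ± 27.6 against 1090 ± 112 on the ethanol diet (mean ± SD, n = 3). *Cyp1a1*, another direct target, went the other way on the control diet (log2 FC 1.5 ± 0.461, SE, adjusted *P* = 0.0453, edgeR). On the ethanol diet its log2 FC was −0.04 ± 0.304 and not called. *Ahr* counts per gene include exons outside the deleted exon 2, so they do not check the genotype, and they ranged from 16.6 to 30.5 CPM in WT and from 24.7 to 65.5 CPM in *Ahr* HKO livers. The 5 hepatocyte markers together made 70100 to 112000 CPM in HKO-con livers and 76600 to 87800 CPM in WT-con livers. On ethanol they made 101000 to 108000 CPM in *Ahr* HKO and 80800 to 110000 CPM in WT livers. Their median log2 FC between the genotypes was −0.02 on the control and 0.48 on the ethanol diet. That of 8 Kupffer cell and macrophage markers was 0.45 and −0.93. None of these markers was called between the genotypes. On ethanol 4 of the 5 and 7 of the 8 had an unadjusted *P* value under 0.05 (edgeR). In whole liver, fewer cells of a type and less RNA per cell cannot be told apart.

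**Figure D1:**
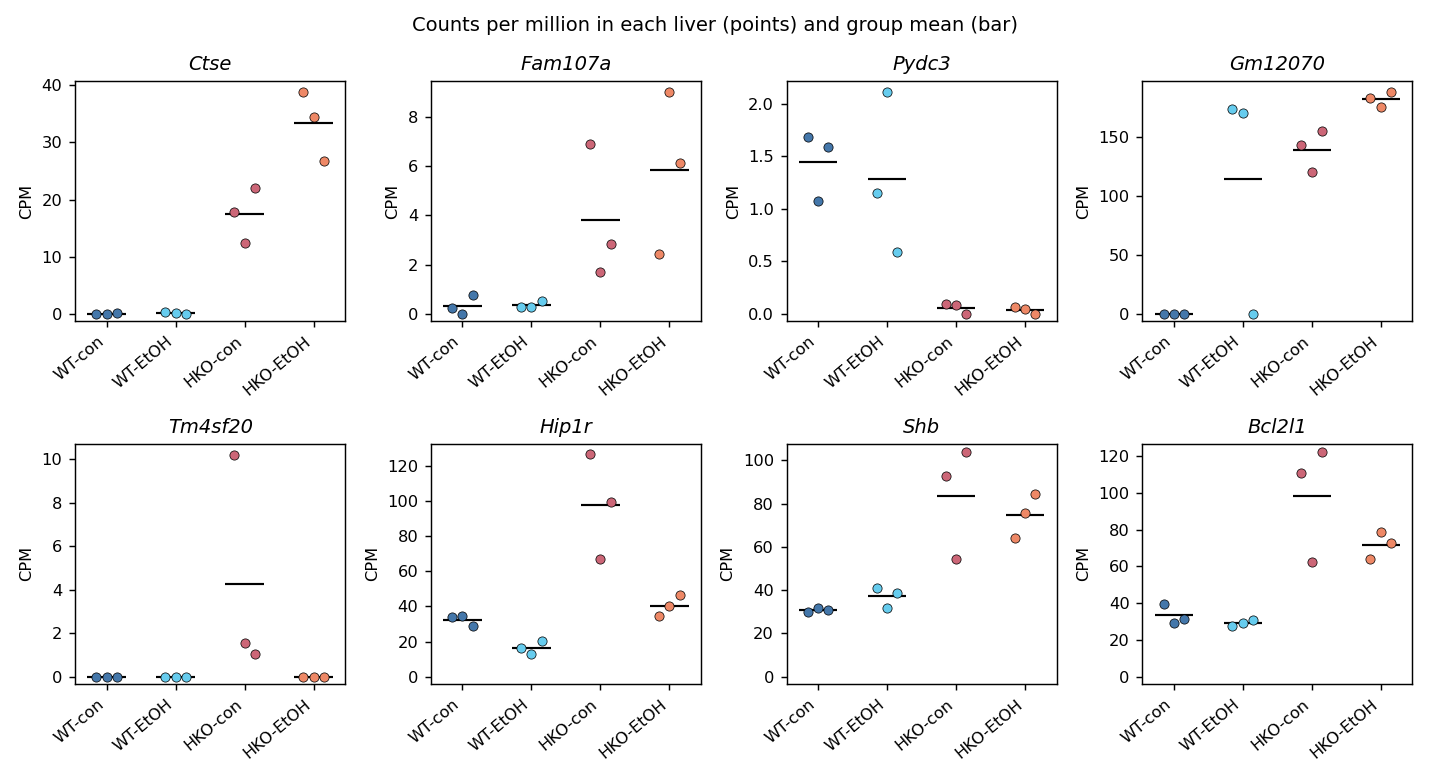
CPM (linear axis from 0) of the 8 genes in each of the 12 livers, with points for livers and a bar for the mean of the 3 livers of a group. *Tm4sf20* has points above 0 in the HKO-con group alone, *Gm12070* is at 0 in 4 WT livers, and *Pydc3* is the 1 gene that is lower in *Ahr* HKO livers.

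Per unit of gene length the genes spanned a wide range. In FPKM, which divides the fragments of a gene by its length and by the depth, the highest level in HKO-con livers was that of *Gm12070* (80.8 ± 6.17, SD, n = 3), above every liver's value for the others. *Bcl2l1* (36.2 ± 10.2 FPKM), *Shb* (28.9 ± 7.77) and *Hip1r* (21.2 ± 6.13) followed, and their ranges over livers overlapped one another. *Ctse* was next, at 7.82 ± 1.75 FPKM. *Tm4sf20* (2.72 ± 3.25 FPKM) reached up to the range of *Ctse* in 1 liver and also overlapped *Fam107a* (1.16 ± 0.829 FPKM). *Pydc3* was last, at 0.0177 ± 0.0157 FPKM. In WT-con livers *Bcl2l1* (12.5 ± 2.12 FPKM) and *Shb* (10.6 ± 0.281 FPKM) led, *Hip1r* stood at 6.96 ± 0.602 FPKM, and the other 5 genes were under 1 FPKM in every liver.

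On the control diet all 8 genes passed the call rule and their groups did not overlap, by construction of the choice (7 with DESeq2 or with near-identical copies summed, 6 with limma on log2(FPKM + 1) and 3 with at least 10 counts in every library), beside 19.9% of tested genes called and 47.3% with groups that did not overlap. Of the 8, 7 were higher and 1 lower in *Ahr* HKO livers, beside 9.77% and 10.1% of tested genes called in these directions. On the ethanol diet 6 of the 8 passed, beside 1.06% of tested genes called, and with 1 liver left out 1 to 5 did, *Ctse* each time. With limma on log2(FPKM + 1) 4 passed, and 3 after quantile normalization. With at least 10 counts in every library 3 passed, and with no filter on low counts 5 did, without *Pydc3*. The 6 that passed the main test were 5 higher and 1 lower, beside 0.684% and 0.378% of tested genes. Groups of 7 genes did not overlap there, beside 27.9% of tested genes, and 7 did not overlap on both diets in the same direction, beside 6.08%. Only 35 tested genes, 0.249%, were called on both diets in the same direction, 27 higher and 8 lower in *Ahr* HKO livers, and 6 of these 35 were *Ctse*, *Fam107a*, *Pydc3*, *Hip1r*, *Shb* and *Bcl2l1*. The 35 made up 1.26% of the genes called on the control diet and 23.5% of those called on the ethanol diet. The genotype comparisons of the diets share no livers, but the set was chosen as genes switched on both diets. Agreement of the 8 genes between the diets is thus part of the choice and no replication. Another 25 genes were called on both diets in opposite directions, which is 0.178%.

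Of the 6 genes read in both genotypes on both diets, *Ctse* had the largest FC. In WT livers it gave 0.0873, 0 and 0.123 CPM on the control diet and 0.34, 0.0954 and 0.0637 CPM on the ethanol diet, which is 0 to 18 reads per liver. In *Ahr* HKO livers it gave 17.9, 12.5 and 22 CPM on the control diet and 38.8, 34.5 and 26.7 CPM on the ethanol diet. Each *Ahr* HKO liver was thus above every WT liver, at a fitted FC of 253 on the control diet and of 207 on the ethanol diet. These sizes rest on few WT reads: the log2 FC of 7.98 on the control diet was 7.34 without WT-con liver 2 and 8.7 without WT-con liver 3, and that of 7.69 on ethanol was 8.67 without the first WT-EtOH liver. On log2(FPKM + 0.1) with limma they were 5.95 and 6.37, and on log2(FPKM + 1) 3.08 and 3.81. The gene lies on chromosome 1 (1:131638314-131675507, Entrez 13034). 

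Ethanol raised *Ctse* in *Ahr* HKO livers, where the log2 FC between the diets was 0.93 ± 0.232 (SE; adjusted *P* = 0.023, edgeR quasi-likelihood test). The HKO-EtOH livers were all above the HKO-con livers. The call was lost without the first or the second HKO-EtOH liver or the first HKO-con liver (log2 FC 0.81, 0.91 and 0.95, adjusted *P* = 0.0655, 0.0595 and 0.0598, edgeR), and with all 12 libraries in 1 fit (adjusted *P* = 0.0561, edgeR). In WT livers the change was 1.24 ± 1.1, on few reads (adjusted *P* = 0.517, edgeR). The difference between these effects, tested as the interaction of genotype and diet, was −0.29 ± 0.872 (adjusted *P* = 0.844, edgeR). On log2(FPKM + 1), where the low WT levels count for less, it was 0.73 and called (adjusted *P* = 0.0384, limma). Diet effects were tested although the livers are those whose genotype difference chose the genes, and the interaction is the difference of those genotype differences, so it is given for description.

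Because cathepsin E is a product of stomach, gut and blood cells, markers of those tissues were read in the same libraries. Of 7 stomach markers, 5 (*Gkn1*, *Gkn2*, *Tff1*, *Muc5ac* and *Pgc*) had at most 3 reads in every liver, and all 7 summed to 0.245 to 3.29 CPM. *Alpi*, *Cdx1*, *Cdx2* and *Lct* of 7 intestinal markers and *Prss2*, *Cpa1*, *Ctrb1* and *Pnlip* of 5 pancreatic markers had at most 3 reads as well. The 7 intestinal markers summed to 27.8 to 101 CPM, most of it *Fabp2* (not called between the genotypes), and the 5 pancreatic markers to 8.57 to 30.1 CPM, of which *Cela1* was called higher in *Ahr* HKO livers on ethanol (log2 FC 1.4 ± 0.17, adjusted *P* = 0.0257, edgeR). The summed level of the 6 erythroid markers was 142 to 289 CPM in HKO-con and 457 to 891 CPM in WT-con livers, and 367 to 493 CPM in HKO-EtOH and 207 to 437 CPM in WT-EtOH livers, which overlapped. Within it *Hba-a1* and *Hbb-bs* had no read in 1 HKO-con liver and 4643 to 6004 reads in the others. The part of any of these cells in the level of *Ctse* was not tested.

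The other proteases of the endosome and lysosome were read as a list. Of 16 tested cathepsins and aspartic proteases, none was called between the genotypes on either diet, against 19.9% and 1.06% of tested genes. On the control and the ethanol diet 7 and 6 of them had an unadjusted *P* value under 0.05 in the edgeR test. Their median log2 FC was −0.15 on the control diet and −0.29 on the ethanol diet, beside 0 and −0.01 over all tested genes. In *Ahr* HKO livers 3 of the 16 were called between the diets, against 22% of tested genes: cathepsin S, *Ctss*, fell by 1.32 on the log2 scale (SE 0.315, adjusted *P* = 0.0196, edgeR), *Ctsl* fell by 0.63 (SE 0.139, adjusted *P* = 0.0153, edgeR), and *Ctsf* rose by 0.62 (SE 0.142, adjusted *P* = 0.0172, edgeR). The renin gene *Ren1*, an aspartic protease that lies 1.68 Mb from *Ctse* on chromosome 1, had no read in any of the 6 WT livers. It had 58, 0 and 41 reads in HKO-con and 1, 23 and 9 reads in HKO-EtOH livers, and it was not called (adjusted *P* = 0.066 on the control and 0.168 on the ethanol diet, edgeR).

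*Fam107a* was also low in WT and higher in *Ahr* HKO livers, with a wide spread. WT livers gave 0.24, 0 and 0.777 CPM on the control diet and 0.302, 0.27 and 0.509 CPM on the ethanol diet. *Ahr* HKO livers gave 6.91, 1.71 and 2.86 CPM on the control diet and 2.42, 9 and 6.13 CPM on the ethanol diet. The genotypes did not overlap on either diet, and the fitted FC was 11.4 and 16.1. On the control diet the log2 FC of 3.52 moved between 2.77 and 5.07 with 1 liver left out, lowest without the first HKO-con and highest without WT-con liver 3. The call there was lost with DESeq2 and without the first HKO-con or the first WT-con liver. On the ethanol diet it was lost with limma on log2(FPKM + 1), with or without quantile normalization. It was also lost there without HKO-EtOH liver 2 or 3 or WT-EtOH liver 1 or 2. Within *Ahr* HKO livers the highest liver had several times the level of the lowest on both diets.

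No effect of ethanol on *Fam107a* was detected. The log2 FC was 0.12 ± 1.08 in WT (adjusted *P* = 0.96, edgeR) and 0.61 ± 0.606 in *Ahr* HKO livers (adjusted *P* = 0.476, edgeR), with standard errors that leave room for sizeable changes. The interaction was 0.49 ± 1.22 (adjusted *P* = 0.811, edgeR). The gene lies on the minus strand of chromosome 14 (14:8296270-8317607, Entrez 268709). Its paralog *Fam107b* was not called in any comparison.

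Genes that respond to glucocorticoids, the steroid hormones under which *Fam107a* is known to rise, were read beside it. Of 15 genes, 10 were called higher and none lower on the control diet, against 9.77% of tested genes called higher, and their median log2 FC was 1.46. On the ethanol diet 3 were called higher, against 0.684% of tested genes, and the median was 0.64. These 3 were *Zbtb16*, a transcription factor of the hepatic fasting response (log2 FC 2.78 ± 0.204 on the control and 1.52 ± 0.157 on the ethanol diet), *Tat*, tyrosine aminotransferase (1.72 and 1.63), and *Fkbp5*, a co-chaperone of the glucocorticoid receptor (2.26 and 1.23). The list was drawn up with earlier results of these data known. Corticosterone was not measured in these files, and its part in the levels of *Fam107a* was not tested.

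*Pydc3* was the 1 gene of the set that was lower in *Ahr* HKO livers. WT livers gave 1.68, 1.07 and 1.59 CPM on the control diet and 1.15, 2.11 and 0.589 CPM on the ethanol diet, which is 37 to 133 reads. *Ahr* HKO livers gave 0.098, 0.0853 and 0 CPM and 0.0709, 0.0463 and 0 CPM, which is 0 to 6 reads. Every WT liver was above every *Ahr* HKO liver, at a fitted FC of 22 lower on the control and 28.7 lower on the ethanol diet. Ethanol effects were −0.15 ± 0.473 in WT (adjusted *P* = 0.875, edgeR) and −0.55 ± 1.23 in *Ahr* HKO livers (adjusted *P* = 0.767, edgeR) on the log2 scale, and the interaction was −0.37 ± 1.13 (adjusted *P* = 0.847, edgeR).

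The gene (Entrez 100033459, named Ifi208 in RefSeq, 1:173673628-173698393) sits in a cluster of related genes. Its transcript was 96.4% identical to that of *Pydc4* (named Ifi213 in RefSeq) over 2749 of 2990 bases, so reads could be split between them. *Pydc4* had 0 to 27 reads per liver and was not called on either diet, and with the counts of both genes summed the log2 FC shrank from −4.46 to −2.63 on the control and from −4.84 to −3.68 on the ethanol diet, both still called. On log2(FPKM + 1) it was −0.51 on both diets and not called by limma. The list fixed for the family had 9 of its 16 names in the table. None of its 8 tested genes was called between the genotypes on either diet, against 19.9% and 1.06% of tested genes. In the edgeR test 0 had an unadjusted *P* value under 0.05 on the control diet and 2 on the ethanol diet. Their median log2 FC was 0.08 on the control diet and −0.85 on the ethanol diet, beside 0 and −0.01 over all tested genes. On the ethanol diet all 8 were lower in *Ahr* HKO livers, from −1.57 for *Pydc4* to −0.36 for *Mndal*. *AI607873* (named Ifi207 in RefSeq), a gene of the family outside that list and 25 kb from *Pydc3*, was called higher in *Ahr* HKO livers on the control diet (log2 FC 0.78, adjusted *P* = 0.0202, edgeR). It was named after its values were seen. In *Ahr* HKO livers 2 of the 8 listed genes fell on ethanol, against 11.7% of tested genes, *Pyhin1* by 1.21 (SE 0.306, adjusted *P* = 0.0244, edgeR) and *Ifi204* by 0.99 (SE 0.208, adjusted *P* = 0.013, edgeR) on the log2 scale. All 8 Kupffer cell and macrophage markers fell in the same comparison, with a median of −1.12, and their part was not tested.

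B cell markers moved with *Pydc3*. *Cd79a*, a part of the B cell receptor, gave 0.764 to 1.28 CPM in the 6 WT livers and 0.161 to 0.439 CPM in the 6 *Ahr* HKO livers. *Ms4a1*, which encodes CD20, gave 0.0893 to 0.699 CPM against 0 to 0.0853 CPM. The CPM of the genotypes did not overlap for either. For *Ms4a1* this rests on library scaling, because WT-con liver 2 and HKO-con livers 1 and 2 had 5 reads each. *Cd79a* was called on the control diet (log2 FC −1.73 ± 0.4, adjusted *P* = 0.0171, edgeR) and not on the ethanol diet (−1.53 ± 0.343, adjusted *P* = 0.084). *Ms4a1* was called on neither (−2.7 ± 1.04 and −4.81 ± 0.962, adjusted *P* = 0.0885 and 0.0687, edgeR). The T and NK cell markers *Cd3e* and *Nkg7* and the pan-leukocyte gene *Ptprc* were not called between the genotypes. The part of B cell content in the level of *Pydc3* was not tested.

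**Figure D2:**
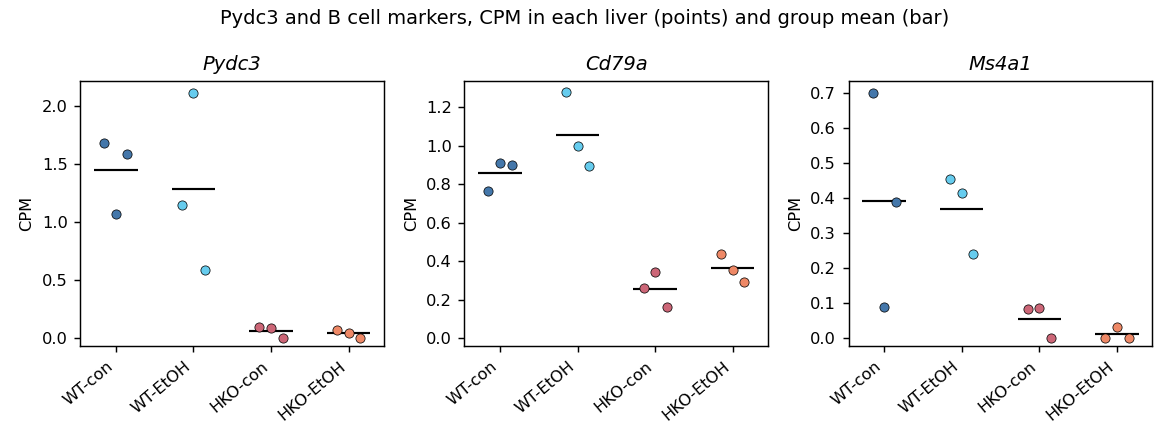
*Pydc3*, *Cd79a* and *Ms4a1* in CPM (linear axes from 0), with points for livers and bars for the means of 3 livers. In each of the 3 panels all 6 *Ahr* HKO livers lie below all 6 WT livers, for *Pydc3* at most 0.098 CPM against at least 0.589 CPM. For *Ms4a1* the lowest WT liver and the highest *Ahr* HKO liver had 5 reads each and differ by library scaling alone.

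*Gm12070* behaved as present or absent. It had no read in the 3 WT-con livers, 174, 170 and 0 CPM in the WT-EtOH livers, 143, 120 and 155 CPM in the HKO-con livers and 183, 175 and 188 CPM in the HKO-EtOH livers. The 8 livers with reads had 7028 to 12876 reads each, and the 4 others had none at all. On the control diet the genotypes were therefore fully apart, at least 2320-fold against the floor of 3 reads. With the counts of *Gm12070* and *Gapdh* summed, the log2 FC there was 0.43 and not called. On ethanol the genotypes differed by 1 WT liver at 0 and otherwise by a margin of 174 against 175 CPM.

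Wherever *Gm12070* was read, its count was 19.6% to 22.8% of that of *Gapdh* in the same liver. *Gapdh* itself was read in every liver, at 586 to 632 CPM in WT-con, 793 to 836 CPM in WT-EtOH, 587 to 738 CPM in HKO-con and 768 to 865 CPM in HKO-EtOH livers. It was no higher in the 1 WT-EtOH liver without *Gm12070* reads, at 793 CPM, than in the other two, at 798 and 836 CPM. Within the 1002 bases compared, reads from the parent gene and its copy cannot be told apart outside the 1 differing base shown above. The rest of the longer RefSeq locus was not compared, and how the reads were placed was not tested.

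**Figure D3:**
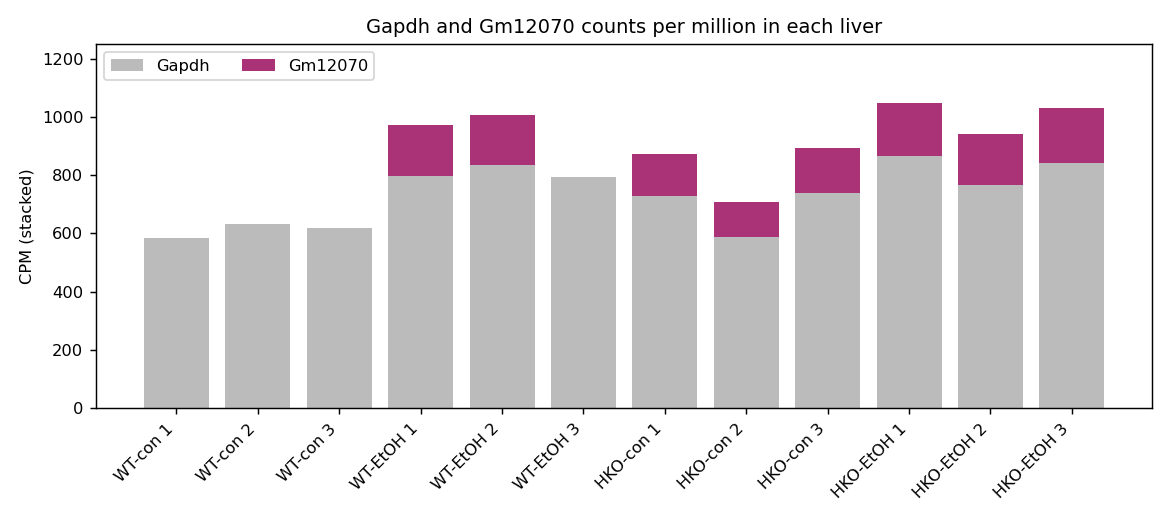
Stacked bars of *Gapdh* and *Gm12070* in CPM (axis from 0) for each of the 12 livers. The *Gm12070* part is missing in 4 livers and makes 19.6% to 22.8% of the *Gapdh* count in the other 8.

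Ethanol did not change *Gm12070* past the threshold in WT (adjusted *P* = 0.0873, edgeR), although it did without the 1 WT-EtOH liver at 0 (adjusted *P* = 0.000284, edgeR) and with DESeq2. These tests in WT also draw on the WT-con livers at 0 that the choice of the gene used, and are no result of their own. In *Ahr* HKO livers the log2 FC was 0.38 ± 0.13 (adjusted *P* = 0.0608, edgeR), and the diets did not overlap. *Gm12070* was the 1 of the 8 whose interaction was called, beside 22.3% of tested genes (adjusted *P* = 0.0181, edgeR). The call draws on the WT-con livers at 0 that the choice of the gene used, and is no result of its own. With the counts of *Gm12070* and *Gapdh* summed, it was no longer called (log2 −0.31, adjusted *P* = 0.245, edgeR), nor was it with limma on log2(FPKM + 1) (adjusted *P* = 0.134). The sum was 586 to 632 CPM in WT-con, 793 to 1006 CPM in WT-EtOH, 707 to 893 CPM in HKO-con and 942.5 to 1048 CPM in HKO-EtOH livers. No size is given for the interaction here, because the WT-con livers were all at 0.

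*Tm4sf20* was read in 3 livers. The HKO-con livers gave 10.2, 1.57 and 1.05 CPM, from 623, 92 and 52 reads, and all 9 other livers had no read. The mean was at least 70.9-fold above the floor of WT-con livers and at least 81.8-fold above that of HKO-EtOH livers. The HKO-con livers are the group through which the gene was chosen and passed the filter on low counts, so its difference from HKO-EtOH livers is given without a test. The first of these livers is far above the others. Between the genotypes on the ethanol diet, and between the diets in WT, there was nothing to compare. The gene is on the minus strand of chromosome 1 (1:82756647-82768461, Entrez 66261).

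Kupffer cell markers varied among these livers. *Marco*, a scavenger receptor of resident macrophages, gave 145, 67.2 and 11.2 CPM in the HKO-con livers, so that the liver with most *Tm4sf20* also had most *Marco*, and 3.49 to 7.49 CPM in the HKO-EtOH livers. All 8 Kupffer cell and macrophage markers were called lower on ethanol in *Ahr* HKO livers, and together they summed to 240 to 676 CPM in HKO-con, 168 to 204 CPM in HKO-EtOH, 279 to 351 CPM in WT-con and 254 to 576 CPM in WT-EtOH livers. Their part in the level of *Tm4sf20* was not tested. Of its family, 2 other genes were tested, of which *Tm4sf1*, an endothelial surface protein, was lower in HKO-con than in WT-con livers (log2 FC −1.19 ± 0.15) and rose on ethanol in *Ahr* HKO livers (0.84 ± 0.194, adjusted *P* = 0.0174, edgeR), the reverse of *Tm4sf20* in both comparisons.

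*Hip1r*, *Shb* and *Bcl2l1* were well expressed in every liver and were higher in *Ahr* HKO livers by a similar factor. *Hip1r* gave 34, 34.3 and 28.9 CPM in WT-con and 127, 66.8 and 99.4 CPM in HKO-con livers. It gave 16.6, 13 and 20.3 CPM in WT-EtOH and 34.5, 40.3 and 46.5 CPM in HKO-EtOH livers. The genotypes did not overlap on either diet, with log2 FCs of 1.6 ± 0.225 and 1.28 ± 0.182, and the lowest HKO-EtOH liver (34.5 CPM) was close to the highest WT-con liver (34.3 CPM).

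*Hip1r* was the 1 gene of the set that ethanol changed in both genotypes. It fell by 0.95 on the log2 scale in WT (SE 0.165, adjusted *P* = 0.0176, edgeR), against 3.4% of tested genes called lower, and by 1.28 in *Ahr* HKO livers (SE 0.243, adjusted *P* = 0.00957, edgeR). The interaction was −0.31 ± 0.312 (adjusted *P* = 0.507, edgeR), so the fall was not shown to differ between the genotypes. In WT the call was lost without the first or the second WT-con liver (log2 FC −0.91 and −0.9, adjusted *P* = 0.0639 and 0.0666, edgeR).

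Genes of clathrin-coated vesicles, in which the protein acts, were read as a list. Over all tested genes 9.77% were called higher in HKO-con than in WT-con livers, and 19.9% in either direction. Of the 20 tested genes of the list, 4 were called higher and none lower. They were the clathrin chains *Cltb* (log2 FC 0.92 ± 0.113) and *Cltc* (0.69 ± 0.107), the actin regulator *Cttn* (0.61 ± 0.0891) and the endocytic scaffold *Eps15* (0.59 ± 0.135). None was called between the genotypes on the ethanol diet, against 1.06% of tested genes (2 at an unadjusted *P* value under 0.05, edgeR). In *Ahr* HKO livers 4 of the 20 were called lower on ethanol, against 11.7% of tested genes. These were *Eps15*, *Cttn*, *Cltc* and the close relative *Hip1*, the last by 0.71 (SE 0.163, adjusted *P* = 0.0176, edgeR). No gene of the list was called between the diets in WT, against 6.76% of tested genes (5 at an unadjusted *P* value under 0.05, edgeR).

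*Shb* gave 29.7, 31.8 and 30.8 CPM in WT-con and 92.9, 54.2 and 104 CPM in HKO-con livers. On ethanol it gave 40.8, 31.7 and 38.8 CPM in WT and 64.1, 75.8 and 84.6 CPM in *Ahr* HKO livers. The log2 FC between the genotypes was 1.45 ± 0.229 on the control and 1.01 ± 0.14 on the ethanol diet. Ethanol effects were 0.28 ± 0.107 in WT (adjusted *P* = 0.149, edgeR) and −0.16 ± 0.248 in *Ahr* HKO livers (adjusted *P* = 0.645, edgeR). The interaction was −0.43 ± 0.286, not called, but −0.66 and called without the second HKO-con liver (adjusted *P* = 0.303 and 0.0298, edgeR).

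Of 14 other tested genes for SH2 adaptors, 3 were called higher and 2 lower in HKO-con than in WT-con livers, against 9.77% and 10.1% of tested genes. On the ethanol diet none was called between the genotypes, against 1.06% (2 at an unadjusted *P* value under 0.05, edgeR). The higher ones included *Nck2* (log2 FC 0.88 ± 0.244) and *Grb2* (0.76 ± 0.115), which link receptors to the cytoskeleton and to Ras. The lower ones were *Shf*, of the same subfamily as *Shb* (−1.64 ± 0.236), and *Grb14*, an inhibitor of the insulin receptor (−1.19 ± 0.178).

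*Bcl2l1* gave 39.8, 29.2 and 31.4 CPM in WT-con and 111, 62.4 and 122 CPM in HKO-con livers. On ethanol it gave 27.7, 29.1 and 30.9 CPM in WT and 64, 78.5 and 72.7 CPM in *Ahr* HKO livers. The log2 FC between the genotypes was 1.56 ± 0.259 and 1.3 ± 0.112. Ethanol effects were −0.18 ± 0.132 in WT (adjusted *P* = 0.429, edgeR) and −0.46 ± 0.251 in *Ahr* HKO livers (adjusted *P* = 0.196, edgeR). The interaction was −0.27 ± 0.297 (adjusted *P* = 0.561, edgeR). Without the second HKO-con liver the ethanol effect in *Ahr* HKO livers was −0.71 and called (adjusted *P* = 0.0185, edgeR).

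The rest of the BCL2 family was read as a list. On the control diet 1 of 19 tested genes was called higher, the survival gene *Bcl2* (log2 FC 0.67 ± 0.187), and 3 were called lower, led by *Bmf* (−2.99 ± 0.201). The shares over all tested genes were 9.77% and 10.1%. The 3 lower genes promote apoptosis, but others of the list that do so, such as *Bax* and *Pmaip1*, were not called there. The 1 called on the ethanol diet, against 1.06% of tested genes, was the pro-apoptotic *Bcl2l11* (−0.91 ± 0.146). Medians were 0.14 and −0.29. *Bmf* fell by 2.69 on ethanol in WT (SE 0.382, adjusted *P* = 0.0101, edgeR) and rose by 1.18 in *Ahr* HKO livers (SE 0.251, adjusted *P* = 0.0135, edgeR).

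**Figure D4:**
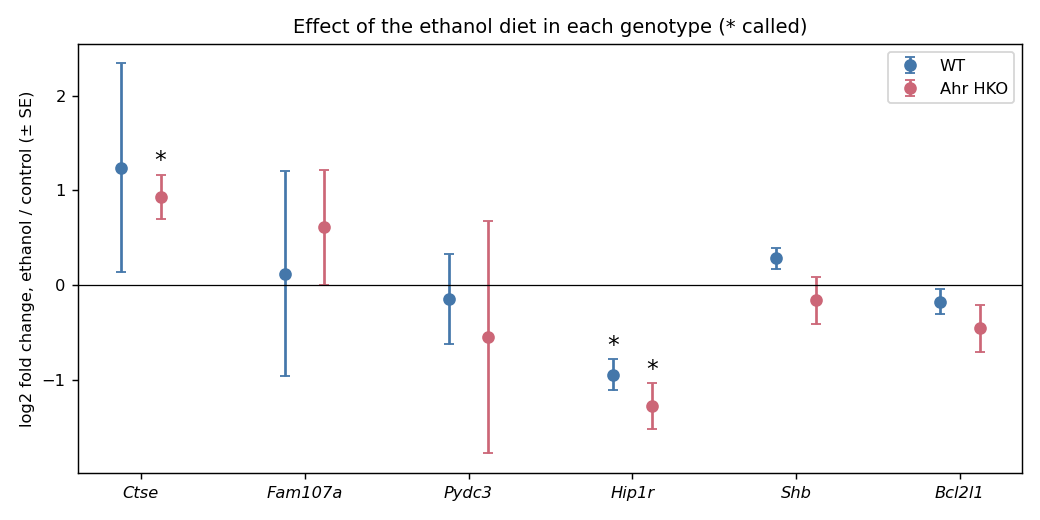
Log2 FC of ethanol against the control diet, with its SE, in WT and *Ahr* HKO livers for the 6 genes read in both genotypes on both diets. Stars mark calls, which are *Hip1r* in both genotypes (−0.95 and −1.28) and *Ctse* in *Ahr* HKO livers (0.93).

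Across the 8 genes, 1 was called between the diets in WT against 6.76% of tested genes, and, with *Tm4sf20* left aside, 2 of 7 in *Ahr* HKO livers against 22%. By direction, these were *Ctse* higher and *Hip1r* lower on ethanol, against 10.3% and 11.7% of tested genes. The diets did not overlap for 1 of the 8 in WT and for 3 of the 7 in *Ahr* HKO livers, against 32.9% and 49.8% of tested genes. Within the HKO-con group the second liver was the lowest for 6 of the 8 genes, whereas over all tested genes with a read it was the lowest for 31.3%. With that liver left out, the log2 FC on the control diet rose to 1.81 for *Hip1r*, 1.68 for *Shb* and 1.81 for *Bcl2l1*.

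The genes lie on 6 chromosomes, with *Ctse*, *Pydc3* and *Tm4sf20* on chromosome 1 but 42 to 90.9 Mb apart. None is on chromosome 12, which carries *Ahr* (12:35497979-35534989). *Hip1r* (5:123973602-124003215, Entrez 29816) shares chromosome 5 with *Alb*, whose promoter drives Cre, at 33.5 Mb. *Shb* lies at 4:45423276-45530828 (Entrez 230126) and *Bcl2l1* at 2:152758732-152833803 (Entrez 12048). 

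To see whether a difference between the genotypes extended along the chromosome, the 5 tested genes on either side of each of the 8 were read. Of these 80 neighbours, 12 (15%) were called on the control diet, 9 higher and 3 lower, against 19.9% of tested genes. None was called on the ethanol diet, against 1.06%, with 11 at an unadjusted *P* value under 0.05 in the edgeR test and 4 called by DESeq2. The median log2 FC of the neighbours was 0.04 and −0.05. The 10 neighbours of *Pydc3*, many of them of its own family, were all lower in *Ahr* HKO livers on the ethanol diet. They ranged from −1.57 to −0.11, with a median of −0.84 and 3 at an unadjusted *P* value under 0.05 (edgeR). On the control diet their median was −0.09. Beside the rest of the set the medians on the ethanol diet were −0.35 to 0.13. Of the called neighbours whose groups did not overlap, the first 4 by FC on the control diet were *Hcar2* beside *Hip1r* (2.43 ± 0.699), *4930452B06Rik* beside *Fam107a* (−2.19 ± 0.588), *Slc25a51* beside *Shb* (1.76 ± 0.319) and *Abcb9* beside *Hip1r* (−0.99 ± 0.204). The nearest to a repeat on ethanol was *Slc25a51*, a mitochondrial NAD carrier 14.4 kb from *Shb*, at 0.93 (adjusted *P* = 0.0581, edgeR).

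**Figure D5:**
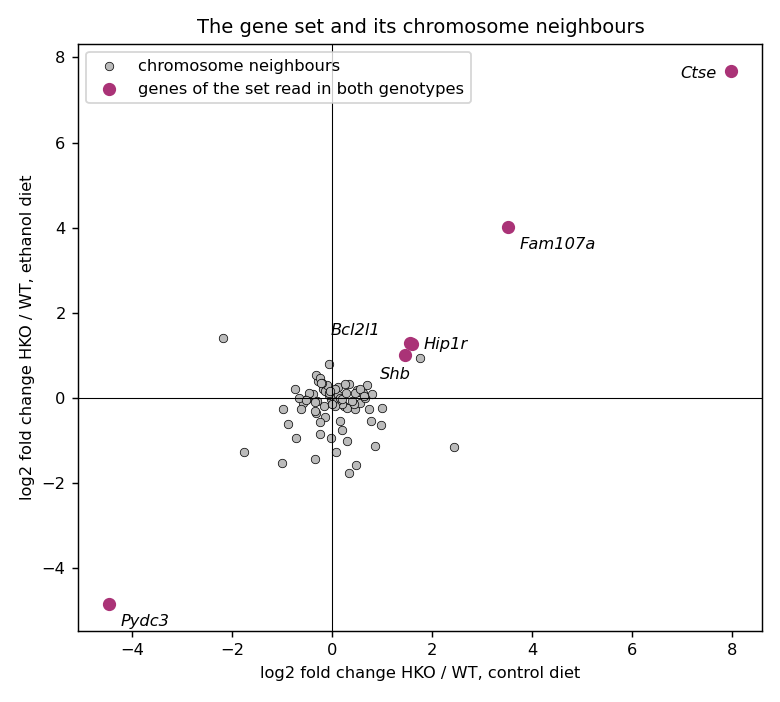
Log2 FC of *Ahr* HKO against WT on the control diet (horizontal) and on the ethanol diet (vertical) for the 80 chromosome neighbours (grey) and the 6 genes read in both genotypes on both diets (purple). Neighbours range from −2.19 to 2.43 on the control and from −1.75 to 1.42 on the ethanol diet, and *Ctse*, *Fam107a* and *Pydc3* lie outside that cloud on both axes. The purple genes were chosen for the differences on these axes and the neighbours were not, so their distance from the cloud follows from the choice.

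Genes beside *Ahr* and *Alb* were read in the same way. Of 10 genes beside *Ahr*, 1 was called on the control diet and none on ethanol (4 at an unadjusted *P* value under 0.05 on either diet, edgeR). Of 10 beside *Alb* none was called on either diet (4 and 0 at an unadjusted *P* value under 0.05, edgeR).

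Genes known to vary between mouse strains or C57BL/6 substrains were read too. The labels give C57BL/6 for all 12 livers and no substrain. *Nnt*, the mitochondrial transhydrogenase that C57BL/6J mice have lost in part, was read in all 12 livers and was higher in *Ahr* HKO livers on both diets, at 56.7 to 80.2 CPM against 31.4 to 41.2 CPM on the control diet and 89.3 to 113 CPM against 56.2 to 60 CPM on the ethanol diet (log2 FC 0.9 ± 0.167 and 0.74 ± 0.115, adjusted *P* = 0.00779 and 0.0422, edgeR). Of the 6 tested genes of that list, 3 were called on the control diet, against 19.9% of tested genes. Besides *Nnt* these were *Wdfy1* (1.12 ± 0.215) and *Entpd4* (−1.05 ± 0.0933). *Nnt* was the 1 called between the genotypes on the ethanol diet. Between the diets in WT livers *Nnt* alone was called, higher on ethanol (0.64 ± 0.124, adjusted *P* = 0.0237, edgeR), against 6.76% of tested genes. In *Ahr* HKO livers *Entpd4* was called higher on ethanol (0.74 ± 0.152, adjusted *P* = 0.0124, edgeR) and *Nlrp1b* lower (−1.57 ± 0.393, adjusted *P* = 0.0235, edgeR), against 22% of tested genes. Gene counts carry no alleles, so for the 8 genes an effect of the loss of AhR and a difference in strain background between the littermates cannot be told apart here.

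Of AhR, its partners and its known targets, 3 of 12 tested genes were called between the genotypes on the control diet, against 19.9% of tested genes. These were *Ahr* and *Cyp1a1*, which were higher, and *Cyp1a2*, which was lower. On the ethanol diet 1, *Cyp1a2*, was called, against 1.06% of tested genes. On ethanol 6 rose in WT and none fell, and 4 rose and 2 fell in *Ahr* HKO livers, against 6.76% and 22% of tested genes. None of the 8 genes was on that list.

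For each gene the tested genes most like it over the 12 livers were found by Pearson's r of log2 CPM, as a description. The closest were *Ap1g1* for *Ctse* (r = 0.953), *Prpf38b* for *Fam107a* (0.936), *Arhgef40* for *Pydc3* (0.943), *Mkl2* for *Gm12070* (0.905) and *Adam9* for *Tm4sf20* (0.984). They were *Ppa1* for *Hip1r* (0.963), *Sdsl* for *Shb* (0.968) and *Smg1* for *Bcl2l1* (0.968). *Prpf38b* was also second for *Ctse* (0.939), and *Hnf4a*, a master transcription factor of hepatocytes, was second for *Shb* (0.946). The livers share their groups, so such an r reflects group differences as much as variation from liver to liver.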

How the data were processed

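RNA-seq of 12 livers in 4 groups of 3 was analysed. The authors deposited read counts per gene (whole numbers, not normalized), FPKM and TPM, and their processing notes name FastQC 0.11.7, Trimmomatic 0.38, HISAT2 2.1.0, Bowtie2 2.3.4.1 and StringTie 1.3.4d on mm10. The deposited TPM values entered no result. The deposited FPKM values gave levels per length and an alternative test.

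Of 24532 genes, filterByExpr over the 4 groups kept 14038. Counts were fitted with edgeR 4.0.16 in R 4.3.3 by the quasi-likelihood test with TMM factors, each pair of groups on its own 6 libraries and the interaction on all 12, with Benjamini-Hochberg adjustment over all tested genes. For the interaction, calls needed only an adjusted *P* value under 0.05. Standard errors were derived from the log2 FC and its F statistic. The code was tested on simulated counts. No library pair of 66 was identical, and replicates differed by more than sampling noise. Litter and day are not given for the livers and were not modelled. *P* values measure the spread between livers taken as independent, which may hold effects of litter or day.

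Genes were placed with RefSeq on GRCm38. The 8 genes, the gene lists and the tests were chosen with earlier results of these data known. Named beside the 8 are called genes of a list or neighbourhood whose groups did not overlap, at most 4 per list and comparison by FC, those that define a list, and the 3 most alike genes with a mean count of at least 50. Alternatives were DESeq2 1.42.0, limma 3.58.1 (on log2 FPKM with 0.1 or 1 added, the latter also quantile-normalized), upper-quartile scaling, other filters, 1 fit of all libraries, a replicate block, leaving out each liver, other thresholds and 3 neighbours per side. The result of 1 lymphocyte marker is not reported here. Summing near-identical copies was added after seeing the data.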

Additional observations from a re-analysis of the deposited data

Results flagged for a closer look

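The interaction of genotype and diet was called for *Gm12070*, at a fitted −15.28 on the log2 scale (edgeR's quasi-likelihood test). It draws on the WT-con livers at 0, which the choice of the gene used, so it is not independent of that choice, and its size depends on the prior count. It was not called with the counts of *Gapdh* and *Gm12070* summed (−0.31, adjusted *P* = 0.245) or under any of the 3 limma settings (adjusted *P* = 0.12 to 0.134).

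Ethanol effects that differed between WT and *Ahr* HKO livers by the same test were also found for genes named beside the 8, each as the effect in *Ahr* HKO minus that in WT livers on the log2 scale. They were −1.23 for *Ahr*, −4.62 for the Kupffer cell marker *Marco*, −1.52 for the leukocyte gene *Ptprc*, −0.92 for *Adam9*, 2.1 for *Cela1*, −1.26 for *Zbtb16*, −3.57 for *Hcar2* and 0.73 for *Entpd4*. In the BCL2 family they were 3.88 for *Bmf*, −1.05 for *Bcl2* and −1.01 for *Bcl2l11*. Among clathrin genes they were −0.72 for *Cltb*, −0.88 for *Cltc*, −0.81 for *Cttn* and −0.97 for *Eps15*, among cathepsins −1.17 for *Ctsl* and −1.66 for *Ctss*, and among SH2 adaptors 1.23 for *Grb14*, −0.73 for *Grb2* and −1.4 for *Nck2*. Against these, 22.3% of all tested genes had a called interaction.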

How the results depend on the processing

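No gene of the 8 changed direction between the genotypes on either diet under any alternative run. Counts of tested genes called on the control diet between the genotypes were 1751 with limma on log2(FPKM + 1) and 1787 after quantile normalization, against 2788. On the ethanol diet they were 1045 with DESeq2, 429 with all 12 libraries in 1 fit, 392, 238 and 83 with limma on log2(FPKM + 0.1), on log2(FPKM + 1) and after quantile normalization, 243 with the replicate block and 860 with an FC above 2 and an unadjusted *P* value under 0.05, against 149. Leaving out 1 liver gave 7 to 189, with 7 and 32 without HKO-EtOH livers 3 and 2 and 22 and 23 without WT-EtOH livers 1 and 2. Of the 8 genes *Ctse* alone was called without HKO-EtOH liver 3, and *Ctse* and *Bcl2l1* without any of the other 3. DESeq2 called 418 higher and 627 lower on the ethanol diet, against 96 and 53. Ethanol in WT gave 1440 with DESeq2, 503 with the replicate block and 1982 at an adjusted *P* value under 0.25, against 949, and 366 to 841 with 1 liver left out, with 448, 366 and 391 without WT-con livers 1, 2 and 3. Ethanol in *Ahr* HKO livers gave 1903 and 1795 with limma on log2(FPKM + 1) without and with quantile normalization, against 3090.

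Of the 8 genes, those called on ethanol in WT numbered 2 with DESeq2, with 1 fit of all libraries, with copies summed and at an adjusted *P* value under 0.25, against 1, and 0 to 2 with 1 liver left out. *Hip1r* was lost without the first or the second WT-con liver. Those called in *Ahr* HKO livers, *Tm4sf20* included, numbered 1 with at least 10 counts in every library, against 3, because most of the 8 do not pass that filter. They were 2 to 4 with 1 liver left out. The interaction called 0 with that filter and with copies summed, against 1, and 1 to 2 with 1 liver left out, the 2 without the second HKO-con liver. The replicate block ended the calls of *Hip1r* in WT (−0.97) and of *Ctse* in *Ahr* HKO livers (0.96). Neighbours called on the control diet numbered 7 and 4 with limma on log2(FPKM + 1) without and with quantile normalization, against 12, and on the ethanol diet 4 with DESeq2, 1 with 1 fit of all libraries, 1 with the replicate block and 0 to 1 with 1 liver left out, against 0.

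Values that did not pass the edgeR test changed sign in places. The interaction of *Ctse* was 0.42, 0.73 and 0.8 with limma on log2(FPKM + 0.1), on log2(FPKM + 1) and after quantile normalization, the last 2 called by limma, against −0.29, and −1.01 to 0.69 with 1 liver left out. That of *Pydc3* was 0.01, 0.00028 and 0.06 under the same settings, against −0.37, and −1.02 to 0.21 with 1 liver left out. That of *Fam107a* was −1.07 to 1.24. With 1 liver left out, the ethanol effect in WT was −0.48 to 1.64 for *Fam107a* and −0.74 to 0.2 for *Pydc3*, and in *Ahr* HKO livers −0.4 to 0.03 for *Shb*. Liver numbers shared across groups did not pair the samples, with correlations of −0.0884 to 0.178 between the deviations of same-numbered livers. The cause of these shifts was not tested, and 3 livers per group limit all of them.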

Other observations

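Beside *Gm12070*, 12 other genes had at most 3 reads in 1 liver and at least 1000 in another of the same group. This criterion was chosen after the values of *Gm12070* were seen. They include *C1rb*, a duplicated complement gene, with 0, 0 and 2792 reads in WT-con livers, *Tubb2b* with 0, 5318 and 0 reads in HKO-con livers, and the haemoglobin genes *Hba-a1*, with 5786, 4791 and 0 reads, and *Hbb-bs*, with 6004, 4643 and 0 reads, in HKO-con livers. *Klhdc7a* had 3769, 0 and 3324 reads in WT-con livers. None of the other 7 genes of the set met the criterion.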
